A study of Homo sapiens with 4 samples.

Results

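The bone morphogenetic protein (BMP) genes described here were 10 genes of BMP signalling, namely the ligands BMP2 and BMP4, the receptors BMPR1A and BMPR2, the target genes ID1, ID2 and ID3, the intracellular inhibitor SMAD6 and the secreted antagonists GREM1 and NOG. A gene was taken where the platform annotation gave a probe set exactly 1 symbol equal to its own. In this way 9 of the 10 genes had a value, on 12 of 36176 probe sets that carried 1 symbol, and they were 9 of 33458 genes in all. BMPR1A was not analysed here. GREM1 had 4 probe sets and every other gene had 1. Where a gene had several probe sets, the one with the highest mean over the arrays stood for it, and the others are given beside it.

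BMPs are secreted dimers that bind pairs of type I and type II serine/threonine kinase receptors. The receptors phosphorylate SMAD1, SMAD5 and SMAD9, which join SMAD4 and enter the nucleus, where the ID genes are among their best known direct targets. The pathway drives osteoblast differentiation and bone formation. It is held back outside the cell by antagonists that trap the ligands, such as gremlin 1 and noggin, and inside the cell by the inhibitory Smads, SMAD6 and SMAD7, which BMP itself induces.

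The arrays came from MG-63 and Saos-2, both established human osteosarcoma cell lines. For each line, 1 array held RNA of cells that had received a negative control hairpin (sh-NC). Another held RNA of cells that had received sh-circ_0000073, a short hairpin RNA directed at the circular RNA hsa_circ_0000073 and called the hairpin below. The sample titles call the same RNAs si-NC and si-hsa_circ_0000073. The lines differ in more than their BMP genes, and each line stands for 1 tumour, so that a difference between them is a difference between these cultures. The circular RNA itself could not be tied to a probe set, so its knockdown has no value here.

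The deposited values were log2 signals, with medians of 3.74 to 3.75 over all probe sets of each array. The 838 probe sets of olfactory receptor genes, which these cells are not known to express, had a 95th percentile between 4.61 and 4.88 on the 4 arrays, and a signal under it is called dim here. Of the markers used to check the labels, the tumour suppressor gene RB1, known to be lost in Saos-2, was at 11.90 and 11.91 in MG-63, beside 6.17 and 5.78 in Saos-2, with sh-NC first here and in each pair below. Among 9 osteoblast and mesenchymal markers, 5 were called higher in Saos-2 and 3 higher in MG-63 by limma, which called 11.9% and 13.7% of all probe sets in these directions. ALPL, the alkaline phosphatase of osteoblasts, was dim in MG-63 (3.89 and 3.97), and its Saos-2 signals were 16.57 and 15.81. The blood cell markers PTPRC, CD3E and HBB lay between 3.61 and 5.12 on all 4 arrays, whereas CD14 was at 8.05 and 8.54 in MG-63. Of 6 epithelial and endothelial markers, EPCAM was at 9.45 and 9.59 in Saos-2 and dim in MG-63. CDH1, KRT5, PECAM1 and CDH5 were dim on all 4 arrays. KRT18 was at 6.99 and 6.14 in MG-63, against 7.48 and 7.03 in Saos-2.

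The first comparison asked which BMP genes differed between the hairpin and sh-NC in each line. GREM1 was higher with the hairpin and SMAD6 was lower with it in both lines. In MG-63, 4 of the 9 genes were more than 1.5-fold higher (BMP2, ID1, GREM1 and NOG) and 1 was lower, while 8.99% of all genes were higher and 7.17% lower by that size. In Saos-2, 3 of the 9 were more than 1.5-fold higher (BMPR2, ID2 and GREM1) and 1 was lower, against 8.97% and 5.18% of all genes. Among genes with a mean log2 signal of at least 6, as 8 of the 9 had, these shares were 14% and 11.5% for MG-63, against 15.7% and 8.45% for Saos-2. Of those 8 genes, 3 were higher and 1 was lower in MG-63, and also 3 higher and 1 lower in Saos-2. The median log2 change of the 9 genes was 0.48 in MG-63, against 0.30 in Saos-2, and that of all genes was 0.02 and 0.06. None of the 9 was past 1.5-fold higher in MG-63 and lower in Saos-2, as 0.412% of all genes were, or the reverse, as 0.568% were. The counts rest in part on changes close to 1.5-fold. BMPR2 and ID2 in Saos-2 no longer passed this size after the changes were centred on their median, which left 1 gene higher there. ID1 in MG-63, where both its signals were dim, did not pass it either.

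With 1 array per condition, no test was possible within a line. The only test of the hairpin took the lines as replicates, by limma with the line as a block. This fit has 1 residual degree of freedom for each probe set. It called 0 of the 9 genes and 0% of all 36176 probe sets at an adjusted p under 0.05, while 3 of the 9 genes (GREM1, SMAD6 and BMP2) and 2628 probe sets, or 7.26%, had an unadjusted p under 0.05. Each condition had 1 array, so that a p-value does not measure the spread between cultures of the same condition. The residual of this fit comes from the difference between the lines in their hairpin change. A p-value rests on these 4 arrays, and limma draws the variance of each probe set towards a trend over all probe sets. A small p-value thus depends in part on the variances of other genes.

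**Figure D1:**
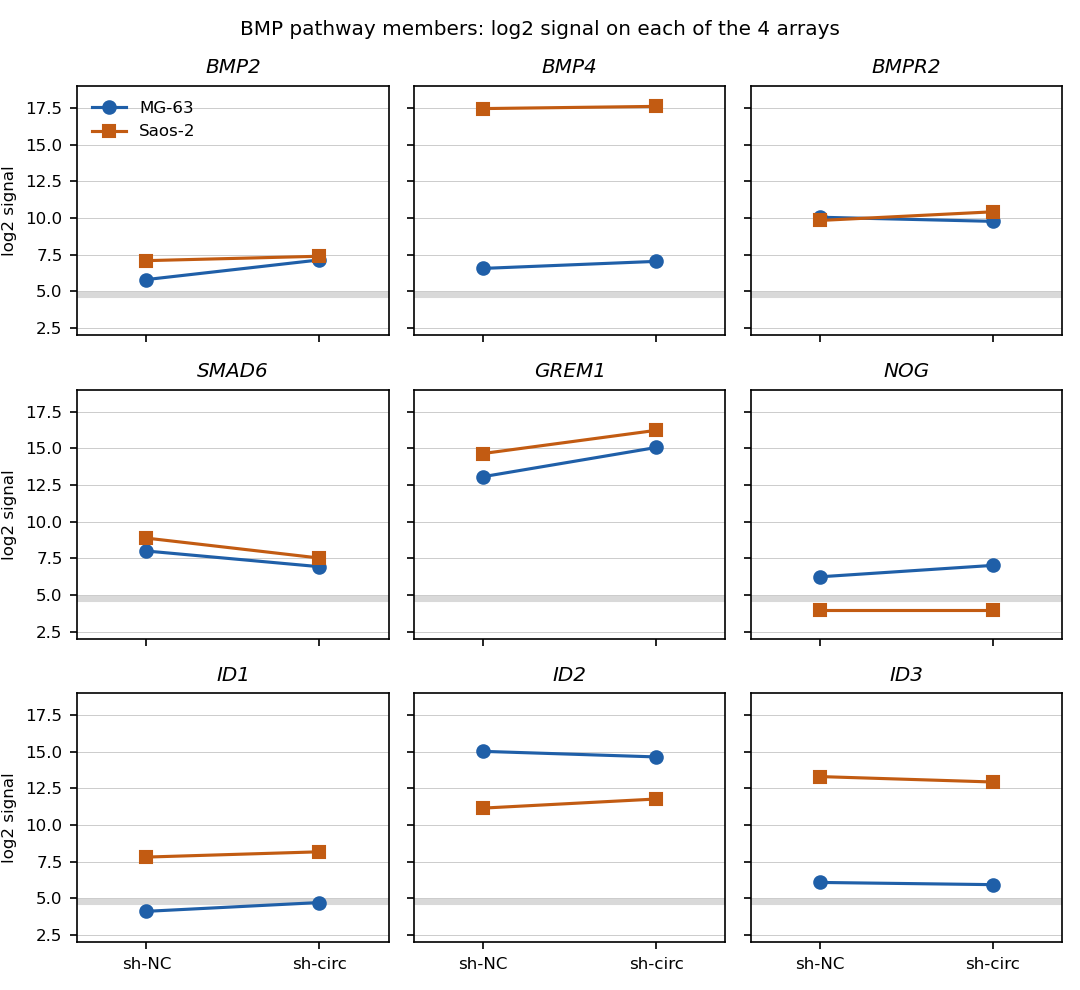
Log2 signal (vertical axis) of each of the 9 BMP genes on the 4 arrays, with sh-NC at the left and sh-circ_0000073 (sh-circ) at the right of each panel, MG-63 as blue circles and Saos-2 as orange squares. Each point is 1 array, and the grey band spans the 95th percentiles of the olfactory receptor probe sets, 4.61 to 4.88. GREM1 and SMAD6 slope the same way in both lines, BMP4 and ID3 are far apart between the lines, and both NOG signals of Saos-2 and the sh-NC signal of ID1 in MG-63 lie under the band, with the other ID1 signal of MG-63, at 4.72, inside it.

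GREM1 encodes gremlin 1, a secreted protein that binds BMP2 and BMP4 and keeps them from their receptors. On the probe set that stood for it, its log2 signal was 13.06 with sh-NC and 15.05 with the hairpin in MG-63, against 14.64 and 16.22 in Saos-2. Both hairpin arrays lay above both sh-NC arrays. The signal was thus 3.97-fold higher in MG-63, a change larger than that of 99.8% of all genes, and 2.99-fold higher in Saos-2, larger than that of 99.4%. GREM1 ranked at 11, by the smaller of its changes, in the set of 591 genes past 1.5-fold upwards in both lines, which is 1.77% of all genes and 3.96% of those with a mean log2 signal of at least 6. The mean log2 change over both lines was 1.78 (standard error 0.20, unadjusted p = 3.5e-05 and adjusted p = 0.158 from limma), so that GREM1 was not called. Its adjusted p ranged from 0.0092 to 1 under the alternative settings, and it was called after quantile normalization (0.0092) and when only probe sets with a mean log2 signal of at least 6 were tested (0.022).

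The other GREM1 probe sets gave the same direction in both lines. The first had log2 signals of 10.81 and 13.05 in MG-63, against 12.81 and 14.45 in Saos-2, which are changes of 2.24 and 1.64. The second had 12.19 and 14.13 in MG-63, against 13.84 and 15.44 in Saos-2, which are changes of 1.94 and 1.60. The last had the lowest signals, 5.84 and 7.43 in MG-63, against 6.92 and 7.10 in Saos-2, and its changes were 1.59 and 0.18. In MG-63 all 4 probe sets were thus at least 3.01-fold higher with the hairpin, while in Saos-2 this probe set was 1.13-fold higher and the other 3 were between 2.99-fold and 3.12-fold higher.

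SMAD6 encodes an inhibitory Smad that blocks BMP receptor signalling and competes with SMAD4 for SMAD1. Its log2 signal was 7.99 with sh-NC and 6.92 with the hairpin in MG-63, against 8.87 and 7.51 in Saos-2. Both hairpin arrays lay below both sh-NC arrays. With the hairpin SMAD6 was thus lower by 2.10-fold (MG-63) and 2.57-fold (Saos-2), changes larger than those of 96.9% and 98.9% of all genes, and it ranked at 69 among 418 genes past 1.5-fold downwards in both, which is 1.25% of all genes and 2.96% of those with a mean log2 signal of at least 6. The mean log2 change was -1.22 (standard error 0.29, unadjusted p = 0.00343 and adjusted p = 0.565 from limma), and the adjusted p ranged from 0.178 to 1 under the alternative settings.

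The stretches just before the starts of GREM1 and SMAD6 are shown because these were the BMP genes past 1.5-fold the same way in both lines, with that of ID3, the ID gene that differed most between the lines. They are the 250 bases before the first annotated start in RefSeq (GRCh38.p14), 5′ to 3′ on the strand of the gene, and a window was found for 8 of the 10 genes. Capitals mark the letters GGCGCC, a GC-rich element that BMP Smads bind and that reads the same on both strands, and CAGAC or its reverse complement GTCTG, a Smad-binding element. The GREM1 stretch is chr15:32717754-32718003 on the plus strand, that of SMAD6 is chr15:66701986-66702235 on the plus strand and that of ID3 is chr1:23559502-23559751 on the minus strand.
GREM1: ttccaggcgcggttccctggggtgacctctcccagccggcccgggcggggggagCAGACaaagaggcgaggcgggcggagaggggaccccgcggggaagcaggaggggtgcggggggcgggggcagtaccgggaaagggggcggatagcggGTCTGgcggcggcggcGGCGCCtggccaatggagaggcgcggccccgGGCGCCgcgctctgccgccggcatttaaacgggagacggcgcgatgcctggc
SMAD6: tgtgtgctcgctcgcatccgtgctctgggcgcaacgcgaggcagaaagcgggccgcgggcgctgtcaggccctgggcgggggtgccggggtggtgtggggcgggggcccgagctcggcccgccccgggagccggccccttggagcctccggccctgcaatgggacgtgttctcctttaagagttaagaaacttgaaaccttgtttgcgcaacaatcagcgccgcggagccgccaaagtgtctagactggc
ID3: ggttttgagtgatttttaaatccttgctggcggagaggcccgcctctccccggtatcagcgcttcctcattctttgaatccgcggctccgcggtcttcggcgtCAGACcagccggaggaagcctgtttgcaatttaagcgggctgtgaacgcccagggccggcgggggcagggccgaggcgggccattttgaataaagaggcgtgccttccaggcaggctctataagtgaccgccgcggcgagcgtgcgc
The GREM1 stretch held GGCGCC 83 and 52 bases before the start and CAGAC or GTCTG 196 and 99 bases before it, with no overlap between them. The window of the second annotated start of GREM1, which is not shown, held no GGCGCC and CAGAC or GTCTG 121 bases before that start. The ID3 stretch held CAGAC 147 bases before the start, and the SMAD6 stretch held neither, as did those of ID1 and ID2. The windows of the first starts of BMP4 and BMPR2, which are not shown, also held both GGCGCC and CAGAC or GTCTG. Of the 11 windows of the 8 genes, 3 held GGCGCC and 6 held CAGAC or GTCTG. Of 35116 such windows over all genes, 16.4% held GGCGCC and 38% held CAGAC or GTCTG. These are matches of letters in short windows, and elements farther away were not searched.

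NOG encodes noggin, which binds BMPs outside the cell as gremlin 1 does. Its log2 signal was 6.23 with sh-NC and 7.01 with the hairpin in MG-63, and 3.95 on both Saos-2 arrays. It was 1.72-fold higher with the hairpin in MG-63, while both Saos-2 signals were dim and give no change. The mean log2 change was 0.39 (standard error 0.31, adjusted p = 0.829 from limma).

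Of the ligands, BMP2 was the one with the larger difference between the hairpin and sh-NC. BMP2, a strong inducer of bone formation, was at log2 signals of 5.80 (sh-NC) and 7.14 (hairpin) in MG-63, against 7.09 and 7.39 in Saos-2. The low value was that of MG-63 with sh-NC, and the other 3 arrays lay within 0.30 of each other. BMP2 was 2.53-fold higher with the hairpin in MG-63, a change larger than that of 98.6% of all genes, and 1.23-fold higher in Saos-2. The mean log2 change was 0.82 (standard error 0.34, unadjusted p = 0.0452 and adjusted p = 0.68 from limma), and the difference of the changes between the lines, 1.04, was not tested, since no replicate within a line is there to test it.

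BMP4, the closest relative of BMP2, had log2 signals of 6.56 and 7.04 in MG-63, against 17.46 and 17.61 in Saos-2. It was 1.39-fold higher with the hairpin in MG-63, beside 1.11-fold higher in Saos-2, and neither passed 1.5-fold (mean log2 change 0.32, standard error 0.24, adjusted p = 0.823 from limma).

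BMPR2, the type II receptor that is most selective for BMPs, had log2 signals of 10.05 and 9.77 in MG-63, against 9.83 and 10.42 in Saos-2. The 4 signals lay close together, and the order of the lines differed between sh-NC and the hairpin. With the hairpin BMPR2 was 1.21-fold lower in MG-63, beside 1.51-fold higher in Saos-2, and the mean log2 change was 0.16 (standard error 0.31, adjusted p = 0.958 from limma).

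The ID genes encode helix-loop-helix proteins that have no DNA-binding domain and hold E proteins in inactive pairs. ID1 had log2 signals of 4.12 and 4.72 in MG-63, both dim, and 7.82 and 8.18 in Saos-2. Its change was 0.60 in MG-63, which is a difference between dim signals, and 0.36 in Saos-2. ID2 had log2 signals of 15.03 and 14.65 in MG-63, against 11.16 and 11.78 in Saos-2, so that it was 1.30-fold lower with the hairpin in MG-63, beside 1.54-fold higher in Saos-2. ID3 had 6.09 and 5.94 in MG-63, against 13.31 and 12.94 in Saos-2, with changes of -0.15 and -0.37. In Saos-2 the 3 ID genes thus had no common direction, since ID1 and ID2 were higher and ID3 lower. In MG-63 ID2 and ID3 were lower, both by less than 1.5-fold, and ID1 was dim. The mean log2 changes were 0.48 (standard error 0.28) for ID1, 0.12 (0.28) for ID2 and -0.26 (0.27) for ID3, with adjusted p-values of 0.763, 0.967 and 0.886 from limma.

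**Figure D2:**
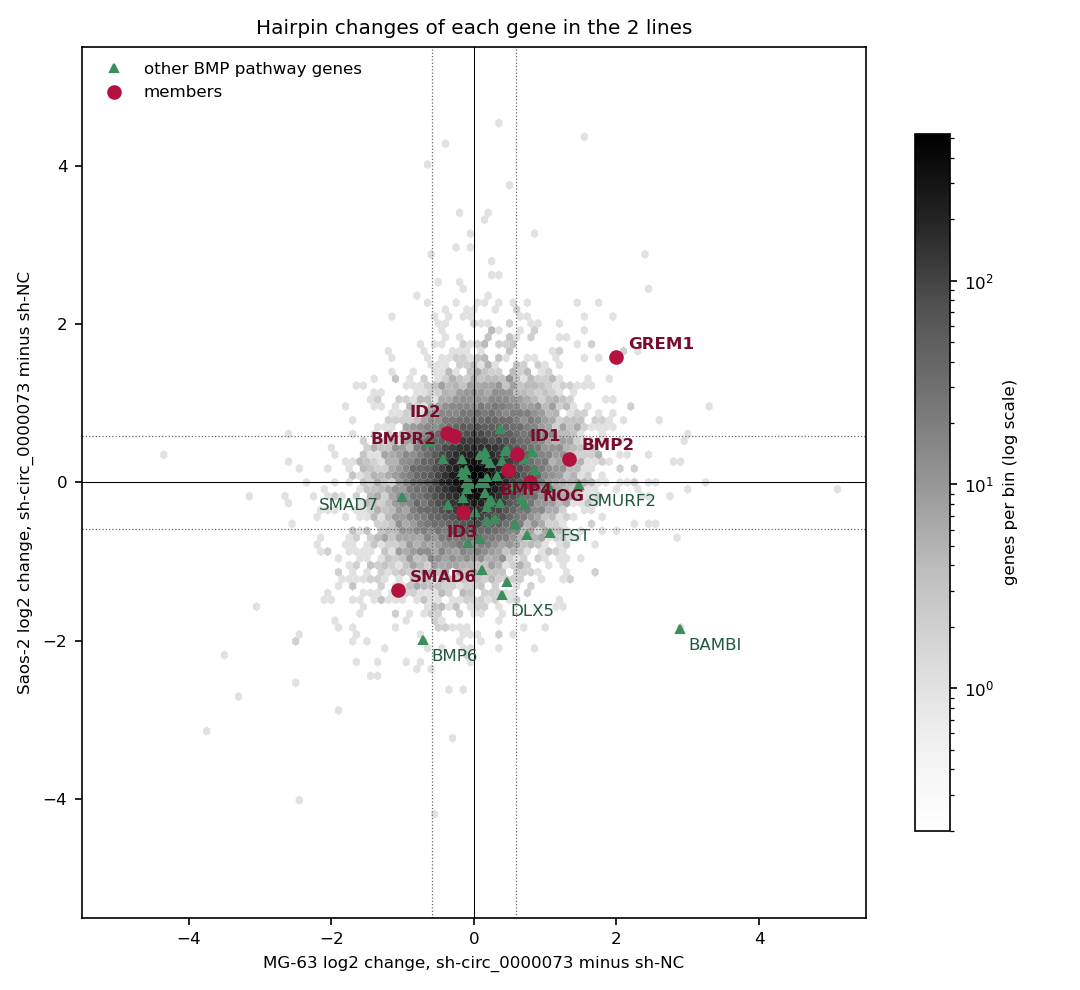
Log2 change with sh-circ_0000073 against sh-NC in MG-63 (horizontal axis) and Saos-2 (vertical axis) for 33458 genes (grey bins, darker for more genes), with the 9 BMP genes as red circles and 53 other BMP pathway genes as green triangles. Dotted lines mark 1.5-fold. GREM1 lies at 1.99 and 1.58, SMAD6 at -1.07 and -1.36, and BAMBI at 2.89 and -1.85. Of the ID genes, ID1 lies at 0.60 and 0.36, ID2 at -0.38 and 0.62, and ID3 at -0.15 and -0.37.

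The second comparison asked how the lines differed in the same genes. Saos-2 had far higher signals of BMP4, ID3 and ID1, and MG-63 had higher signals of ID2 and NOG. With limma on the 4 arrays and the hairpin as a block, 4 of the 9 genes were called higher in Saos-2 (BMP4, ID1, ID3 and GREM1), where 11.9% of all probe sets were called, and 2 higher in MG-63 (ID2 and NOG), where 13.7% were called. In either direction 25.7% of all probe sets were called, and 34.6% had an unadjusted p under 0.05. Of the 8 genes with a mean log2 signal of at least 6, 5 were called, or 62.5%, beside 55.6% of all genes at that level, so that the share of BMP genes called was near that of other genes of like signal.

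BMP4 was 1700-fold higher in Saos-2 on average (log2 difference of MG-63 minus Saos-2 -10.74, standard error 0.24, adjusted p = 7.92e-07 from limma). The gap was -10.90 on the sh-NC arrays and -10.57 on the hairpin arrays, and it was larger than that of 99.9% of all genes. BMP2 had gaps of -1.29 and -0.25 and was not called (mean -0.77, standard error 0.34, adjusted p = 0.158).

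ID3 was 138-fold higher in Saos-2 (-7.11, standard error 0.27, adjusted p = 3.7e-06 from limma), and its gap exceeded that of 99.5% of all genes. ID1 was at least 9-fold higher in Saos-2, with the dim MG-63 signals set to the olfactory receptor percentile of their arrays (fitted log2 difference -3.58, standard error 0.28, adjusted p = 8.48e-05). ID2 went the other way and was 10.3-fold higher in MG-63 (3.37, standard error 0.28, adjusted p = 0.000116), with a gap of 3.87 on the sh-NC arrays and 2.87 on the hairpin arrays. For each of the ID genes, both arrays of one line lay above both arrays of the other.

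Of the antagonists, NOG was at least 3.84-fold higher in MG-63, with the same rule for its dim Saos-2 signals (fitted log2 difference 2.67, standard error 0.31, adjusted p = 0.000515 from limma). GREM1 was 2.59-fold higher in Saos-2 (-1.38, standard error 0.20, adjusted p = 0.00185). It was not called without the hairpin as a block (adjusted p = 0.199), and its MG-63 hairpin array, at 15.05, lay above the Saos-2 sh-NC array, at 14.64. The GREM1 probe set with the lowest signals had gaps of -1.08 and 0.33 and was not called (mean -0.38, adjusted p = 0.564 from limma). The remaining GREM1 probe sets had means of -1.70 and -1.48 and were called higher in Saos-2 (adjusted p = 0.0018 and 0.00164 from limma). SMAD6 had gaps of -0.88 and -0.59 (mean -0.74, standard error 0.29, adjusted p = 0.113) and BMPR2 gaps of 0.22 and -0.65 (mean -0.22, standard error 0.31, adjusted p = 0.698), and neither was called.

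**Figure D3:**
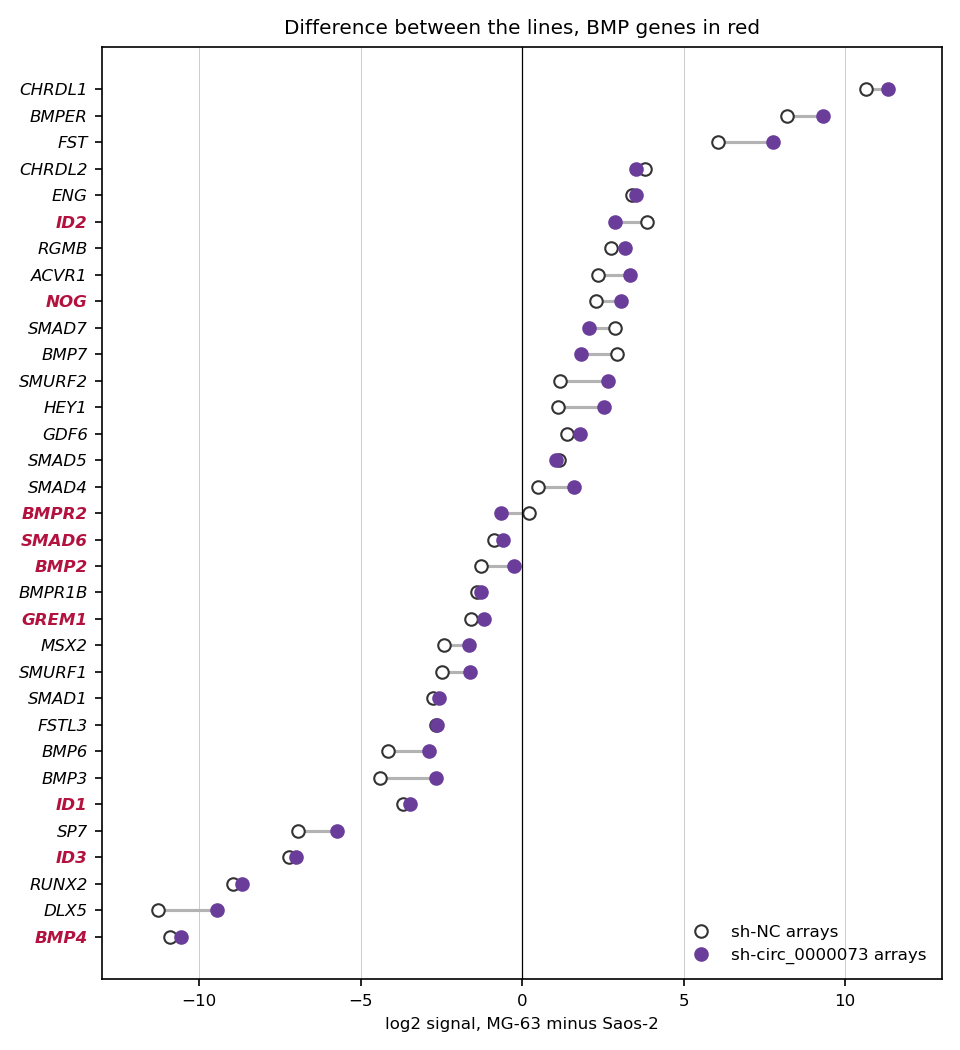
Log2 signal of MG-63 minus Saos-2 (horizontal axis) for the 9 BMP genes (red names) and the 24 other BMP pathway genes that limma called between the lines, on the sh-NC arrays (open circles) and the sh-circ_0000073 arrays (filled circles). BMP4 is at -10.90 and -10.57 and CHRDL1, whose Saos-2 signals were dim, at 10.66 and 11.34.

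The other genes of the pathway were taken from a list of 56 genes by role, of which 53 had a value and 18 of these were dim on all 4 arrays. With the hairpin, 10 were more than 1.5-fold higher and 3 lower in MG-63, or 10 higher and 1 lower of the 25 with a mean log2 signal of at least 6. The shares over all genes were 8.99% and 7.17%, or 14% and 11.5% at that signal. In Saos-2, 1 was higher and 9 lower, or 0 and 7 of those 25, beside 8.97% and 5.18% of all genes, or 15.7% and 8.45% at that signal. Their median log2 change was 0.18 in MG-63 and -0.03 in Saos-2. limma called 0 of the 53 for the hairpin, with 1 at an unadjusted p under 0.05. Between the lines it called 14 higher in MG-63 and 10 higher in Saos-2, beside 25.7% of all probe sets in either direction, and 76% of the 25 brighter genes, beside 55.6% of all genes at that signal.

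Of 12 other ligand genes, BMP6 was the one lower by more than 1.5-fold in both lines, with log2 signals of 4.40 and 3.68 in MG-63, which were dim, and 8.54 and 6.55 in Saos-2. It was 3.97-fold lower with the hairpin in Saos-2 (mean log2 change -1.36 over both lines, standard error 0.36, adjusted p = 0.588 from limma). BMP3, which lacks the bone-inducing activity of BMP2, was 2.39-fold lower in Saos-2, from 7.82 to 6.56, and dim in MG-63. Both genes were called higher in Saos-2, by at least 6.57-fold for BMP6 and at least 5.13-fold for BMP3. In MG-63 GDF6, a growth factor of joints, had signals of 7.19 and 7.89 and BMP7 6.02 and 5.41. BMP7 was dim in Saos-2, and both were called higher in MG-63 (adjusted p = 0.00117 for BMP7 and 0.00549 for GDF6).

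Of 9 other receptors and co-receptors, 3 were more than 1.5-fold higher with the hairpin in MG-63 (8.99% of all genes, or 14% of the brighter ones) and 0 in Saos-2 (8.97%, or 15.7%). ACVR2A, a type II receptor of activins and BMPs, had log2 signals of 9.59 and 10.45 in MG-63, against 9.05 and 9.20 in Saos-2. ACVR1, a type I receptor, had 11.75 and 12.47 in MG-63, against 9.41 and 9.12 in Saos-2, and RGMB, a BMP co-receptor, had 8.90 and 9.71 and then 6.16 and 6.54. ACVR1, RGMB and ENG, the co-receptor endoglin, were called higher in MG-63 by 7.19-fold, 7.75-fold and 11.0-fold. BMPR1B was called higher in Saos-2 at 6.01 and 6.07, beside 4.61 and 4.79 in MG-63.

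None of the 4 Smads that carry the signal passed 1.5-fold with the hairpin in either line. SMAD1 was called 6.34-fold higher in Saos-2 (adjusted p = 0.000324 from limma), with log2 signals of 7.65 and 7.81 in MG-63, against 10.40 and 10.39 in Saos-2. SMAD5 was called 2.14-fold higher in MG-63 and SMAD4 2.06-fold, the latter at an adjusted p of 0.0385 that became 0.0681 without the mean-variance trend.

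Of the 13 other secreted antagonists, 4 were called higher in MG-63 and 1 in Saos-2, beside 13.7% and 11.9% of all probe sets, and 8 were not called. Their median absolute log2 difference between the lines was 0.28, beside 0.34 over all genes, and a few of them differed by far more. Only 5 of the 13 had a mean log2 signal of at least 6, so that this median rests largely on genes of low signal. CHRDL1, which encodes a chordin-like BMP antagonist, had log2 signals of 14.54 and 14.46 in MG-63 and dim signals of 3.88 and 3.12 in Saos-2, and was at least 904-fold higher in MG-63 (adjusted p = 1.17e-06 from limma). BMPER, a BMP-binding protein, had 13.10 and 14.15 in MG-63, against 4.90 and 4.84 in Saos-2. FST, which encodes the activin-binding protein follistatin, had 13.91 and 14.98 in MG-63, against 7.86 and 7.22 in Saos-2, and was 120-fold higher in MG-63. With the hairpin BMPER was 2.07-fold and FST 2.10-fold higher in MG-63, and FST was 1.56-fold lower in Saos-2. CHRDL2 was called higher in MG-63 and FSTL3 in Saos-2.

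Of 7 intracellular and membrane inhibitors, BAMBI had the largest change of all the pathway genes measured in MG-63, while in Saos-2 it had a change second in size to that of BMP6. BAMBI encodes a pseudoreceptor that lacks a kinase domain, and its log2 signal was 12.02 with sh-NC and 14.91 with the hairpin in MG-63, against 11.60 and 9.75 in Saos-2. It was 7.41-fold higher in MG-63, beside 3.61-fold lower in Saos-2. SMURF2, a ubiquitin ligase that acts on Smads and receptors, was 2.79-fold higher in MG-63, from 14.25 to 15.73, and 1.02-fold lower in Saos-2. SMURF1 was 1.58-fold higher in MG-63. SMAD7 was 2.01-fold lower with the hairpin in MG-63, from 11.75 to 10.74, on its brighter probe set, while its other probe set had 6.54 and 6.74 there, and in Saos-2 it went from 8.86 to 8.67. SMAD6 and, on its brighter probe set alone, SMAD7 were thus more than 2-fold lower in MG-63. In Saos-2 SMAD6 alone of these inhibitory Smads passed 1.5-fold.

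Of 8 other target genes, 4 were more than 1.5-fold lower with the hairpin in Saos-2 (5.18% of all genes, or 8.45% of the brighter ones). In MG-63 1 was higher (8.99%, or 14%). DLX5, a homeobox factor of bone that BMP induces, had log2 signals of 14.22 and 12.80 in Saos-2 and was dim in MG-63 at 2.95 and 3.35. SP7, which encodes the osteoblast factor osterix, had 9.77 and 8.66 in Saos-2 and 2.83 and 2.94 in MG-63. MSX2 had 8.30 and 7.59 in Saos-2 and 5.87 and 5.95 in MG-63. With the hairpin these were 2.68-fold, 2.16-fold and 1.64-fold lower in Saos-2. RUNX2, the master factor of osteoblasts, had 16.53 and 16.39 in Saos-2 and 7.57 and 7.72 in MG-63 and did not pass 1.5-fold in either. DLX5, SP7, MSX2 and RUNX2 were called higher in Saos-2, by at least 410-fold for DLX5, at least 20.9-fold for SP7, 4.10-fold for MSX2 and 450-fold for RUNX2. HEY1, also a Notch target, had 6.67 and 7.42 in MG-63, against 5.56 and 4.90 in Saos-2, and was called higher in MG-63 (adjusted p = 0.0101 from limma), the direction of ID2.

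**Figure D4:**
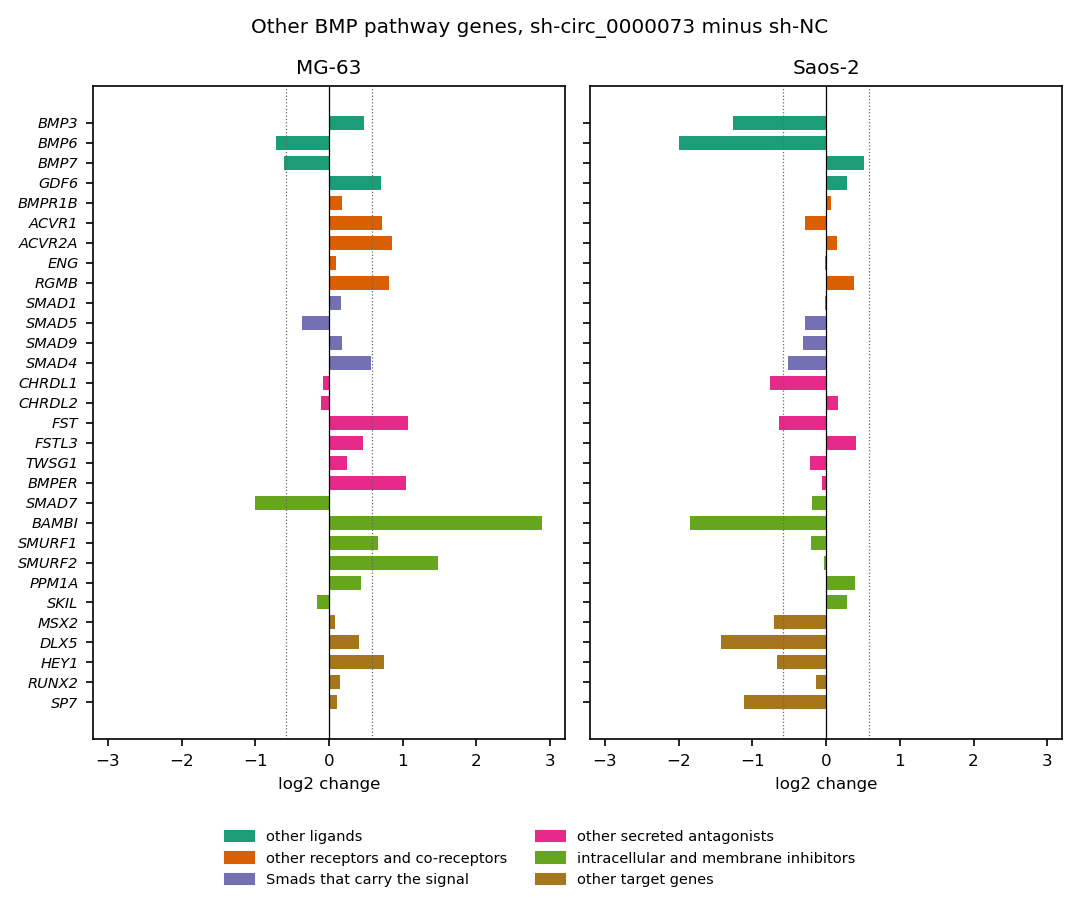
Log2 change with sh-circ_0000073 against sh-NC (horizontal axis) in MG-63 (left) and Saos-2 (right) for the 30 other BMP pathway genes that reached a log2 signal of 6 on at least 1 array, coloured by role. Each bar is the difference of 2 arrays with no replicate, and dotted lines mark 1.5-fold. BAMBI is at 2.89 (MG-63) and -1.85 (Saos-2), and among the target genes DLX5 and SP7 are at -1.42 and -1.11 in Saos-2.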

How the data were processed

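Total RNA of MG-63 and Saos-2 cells was measured on 4 Affymetrix arrays, 1 per condition. The authors used a GeneChip WT Pico Reagent Kit and deposited log2 signals per probe set, made with Affymetrix Expression Console per the labels. Summarisation, background correction and version (not given in the sources used here) could change the values, and a scaling that forces equal array distributions would hide a shift shared by most genes. Of 135750 probe sets, 36176 carried 1 symbol, with 623 symbols updated through RefSeq (GRCh38.p14), 1119 carried several and were left out, and 98455 were unnamed here. Changes are sh-circ_0000073 minus sh-NC. Within a line, changes past 1.5-fold were counted without a p-value. limma 3.58.1 in R 4.3.3, with a mean-variance trend, was fitted to all 36176 probe sets with the line and the hairpin as terms and Benjamini-Hochberg adjustment at 0.05. The hairpin term was also run on simulated arrays, whose planted changes were larger than the mean hairpin changes of the BMP genes. That run does not measure how well changes of the sizes reported here are detected. Python 3.11.15, numpy 2.4.6 and pandas 2.3.3 served for the rest. The number of arrays limits the precision. Where both arrays of a line were under the 95th percentile of 838 olfactory receptor probe sets, a fold between the lines was computed against that percentile as a lower bound.

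The genes, the lists and the tests were chosen with earlier results of these data known. Named are the BMP genes, the markers, and of the other pathway genes those that passed 1.5-fold the same way in both lines, the 6 with the largest change per line at a log2 signal of at least 6 on 1 array of that line, and those called between the lines. SMAD9 and other genes of the list are covered by counts. The alternatives were a 2-fold size, centring, quantile normalization, a mean log2 signal of at least 6, all probe sets of a gene averaged, and limma without trend, with robust variances or without the block.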

Additional observations from a re-analysis of the deposited data

Results flagged for a closer look

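Each of 3 pathway genes was more than 1.5-fold higher with the hairpin in MG-63 and more than 1.5-fold lower in Saos-2, as were 0.412% of all genes, and the difference between the lines was not tested, since each change comes from 1 pair of arrays. The change in MG-63 minus that in Saos-2 was 4.74 on the log2 scale for BAMBI, the pseudoreceptor, 1.71 for FST, the follistatin gene, and 1.41 for HEY1, a transcription factor gene. BAMBI had changes of 2.89 and -1.85, FST of 1.07 and -0.64, and HEY1 of 0.75 and -0.66. The HEY1 signals in Saos-2 were 5.56 and 4.90, and the 95th percentiles of the olfactory receptor probe sets on those arrays were 4.61 and 4.75. None of the 9 BMP genes with a value was past 1.5-fold in opposite directions.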

How the results depend on the processing

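No paired analysis was possible because the labels give no replicate numbers, other than the pairing of both arrays of a line through the line as a block, and without that block limma called 0 of the 36176 probe sets for the hairpin, as with it (360 had an unadjusted p under 0.05 without it and 2628 with it). Each condition is 1 array, so that no replicate could be left out. Of the 9 BMP genes, the MG-63 arrays had 4 and the Saos-2 arrays 3 that were more than 1.5-fold higher. At 2-fold these counts were 2 and 1, and in Saos-2 the count was 1 both after the changes were centred on their median and after quantile normalization. The count of 1 lower gene in each line, SMAD6, did not move under any of the alternatives. Among the other pathway genes, the 10 higher and 3 lower in MG-63 became 4 and 1 at 2-fold, and the 1 higher and 9 lower in Saos-2 became 0 and 5. With a mean log2 signal of at least 6, 1 was lower in MG-63 and 0 were higher in Saos-2. For the hairpin over both lines, limma called 0 of the BMP genes, but 1, GREM1, after quantile normalization and also 1, GREM1, with a mean log2 signal of at least 6. Over all probe sets, these settings called 15 higher and 25 lower, and 9 higher and 11 lower. Between the lines, 1 BMP gene in place of 2 was called higher in MG-63 with that minimum, which leaves out NOG. No called value was reversed under the alternatives run. The deposited table holds no detection calls, and dim signals limit what can be said of ID1 in MG-63 and NOG in Saos-2.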
